A study of Mus musculus with 16 samples.

Results

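FGF-ERK signalling genes were examined in mouse pluripotent stem cell lines that had been derived from 1 kind of somatic cell by 2 methods. The set held 9 genes chosen by name, namely the ligand Fgf4, the receptors Fgfr1 and Fgfr2, the feedback inhibitors Spry2, Spry4 and Dusp6, and the transcription factors Etv4, Etv5 and Egr1. All 9 were found among the 22552 gene names in the table, and all 9 were among the 13185 genes with a mean of at least 0.5 FPKM over the lines, which were tested. FPKM values are read numbers corrected for the length of the transcript and the size of the library.

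RNA was sequenced from 16 lines with 1 library per line. Each line is a separate derivation, and here the line is the replicate. Adipocyte progenitor cells (APCs) of strain 129-M2rtTA, which carry the same inserted doxycycline-inducible reprogramming factors in all lines, were either transferred as nuclei into enucleated oocytes, giving nuclear transfer embryonic stem cells (AN lines), or induced with doxycycline, giving induced pluripotent stem cells (AI lines). The study called a line fully reprogrammed (F) or partially reprogrammed (P) by tetraploid complementation, a test of whether injected stem cells can form a whole mouse. Of the AN lines, AN1, AN15, AN20 and AN9 were fully reprogrammed (4 lines, AN F), while 5 lines, AN7, AN6, AN5, AN3 and AN2, were partially reprogrammed (AN P). Of the AI lines, GS32, AI10, AI7 and AI3 made up the 4 lines of AI F, and GS9, GS4 and AI9 the 3 lines of AI P. Passage numbers were 5 to 7 in the AN lines and the newly derived AI lines, and 17 in GS4, 6 in GS9 and 13 in GS32, which came from a previous derivation. Cells were kept in serum with LIF, and mouse embryonic fibroblasts served as feeders when the AN lines were derived. The GEO entry gives the line by title and not the F or P call, which was taken from the study by title. The source field of both GS32 and GS9 reads GS4 instead, so everything said of AI assumes correct titles.

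In the early mouse embryo and in embryonic stem cells, FGF4 is secreted by the pluripotent cells themselves and binds FGF receptors, which act through RAS, RAF and MEK on the ERK kinases. ERK activity allows cells to leave the naive state, and it switches on early response genes such as Egr1, the ETS factors Etv4 and Etv5, and genes of the Sprouty and dual-specificity phosphatase families that dampen the same pathway. The RNA levels of these targets are often read as a trace of pathway activity, but RNA does not measure phosphorylated ERK.

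The starts of 3 of the genes are shown because they represent the ligand and both kinds of feedback inhibitor whose levels are compared here. RefSeq promoter sequences on GRCm38.p6 were taken for 5 of the 9 genes (Fgf4, Fgfr2, Spry2, Dusp6 and Etv5), with more than a single window for Etv5. Each runs from 250 bases before the start site to 50 bases after it and is written 5′ to 3′ on the strand of the gene. The letters CCGGAA, a core bound by ETS factors, and GGGCGG, the box bound by SP1, were searched on both strands and are printed in capitals on the strand of the gene.
Fgf4, chr7:144861136-144861435, plus strand: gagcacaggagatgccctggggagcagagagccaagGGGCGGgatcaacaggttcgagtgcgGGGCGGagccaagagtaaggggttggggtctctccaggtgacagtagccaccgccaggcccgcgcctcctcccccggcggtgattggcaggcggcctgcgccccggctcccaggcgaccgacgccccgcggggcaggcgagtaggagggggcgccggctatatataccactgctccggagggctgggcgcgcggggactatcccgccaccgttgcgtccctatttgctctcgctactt
Dusp6, chr10:99262981-99263280, plus strand: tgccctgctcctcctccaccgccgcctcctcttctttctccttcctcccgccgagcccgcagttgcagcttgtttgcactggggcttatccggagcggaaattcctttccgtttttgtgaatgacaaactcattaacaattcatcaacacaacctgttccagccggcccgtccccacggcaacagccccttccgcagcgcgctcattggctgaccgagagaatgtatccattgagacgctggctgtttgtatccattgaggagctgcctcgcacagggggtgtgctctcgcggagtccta
Spry2, chr14:105896770-105897069, minus strand: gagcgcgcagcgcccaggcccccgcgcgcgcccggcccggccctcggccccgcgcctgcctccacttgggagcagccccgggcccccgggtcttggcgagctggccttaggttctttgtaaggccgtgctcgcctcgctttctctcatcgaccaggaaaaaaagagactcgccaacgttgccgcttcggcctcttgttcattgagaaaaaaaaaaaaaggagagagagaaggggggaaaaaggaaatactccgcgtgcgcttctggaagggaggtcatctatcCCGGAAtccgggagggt
The ETS core occurred once in these promoters, in Spry2 from 34 to 39 bases after the start site, and 14.9% of 32851 promoters of the same length held it. The SP1 box occurred at 2 places in Fgf4 and at 3 in Etv5, and 35.7% of all promoters held it. Neither the CArG box, the site of serum response factor (in 1.63% of all promoters), nor the letters TATAAA (13.6%) were found in the windows taken. The promoters of Spry4 and Egr1 were left out before the search, and none was matched for Fgfr1 and Etv4. Nothing is therefore said of the promoters of these genes.

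Per transcript length, the highest levels in the set were those of the ETS factor Etv5, with a mean of 116 FPKM over the 16 lines, and of Egr1, a zinc finger factor of the immediate early response, with 108 FPKM. Spry2, a Sprouty inhibitor of receptor signalling to RAS, followed with 85.8 FPKM, and Dusp6, a phosphatase of ERK, with 33.2 FPKM. Etv4 had 29.2 FPKM, Fgf4 23.8 FPKM and Fgfr1 22.2 FPKM, while Spry4 had 10.5 FPKM and Fgfr2 3.51 FPKM. Spry2 was above Dusp6, Fgfr1 above Spry4 and Spry4 above Fgfr2 in 16 of 16 lines. The other neighbours in this order differed by less than the SD of their difference over the lines. Etv5 was above Egr1 in 11 of 16 lines, and Fgf4 above Fgfr1 in 11 of 16 lines. RNA from whole cultures was measured, so fewer cells of a type and less RNA per cell cannot be told apart.

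**Figure D1:**
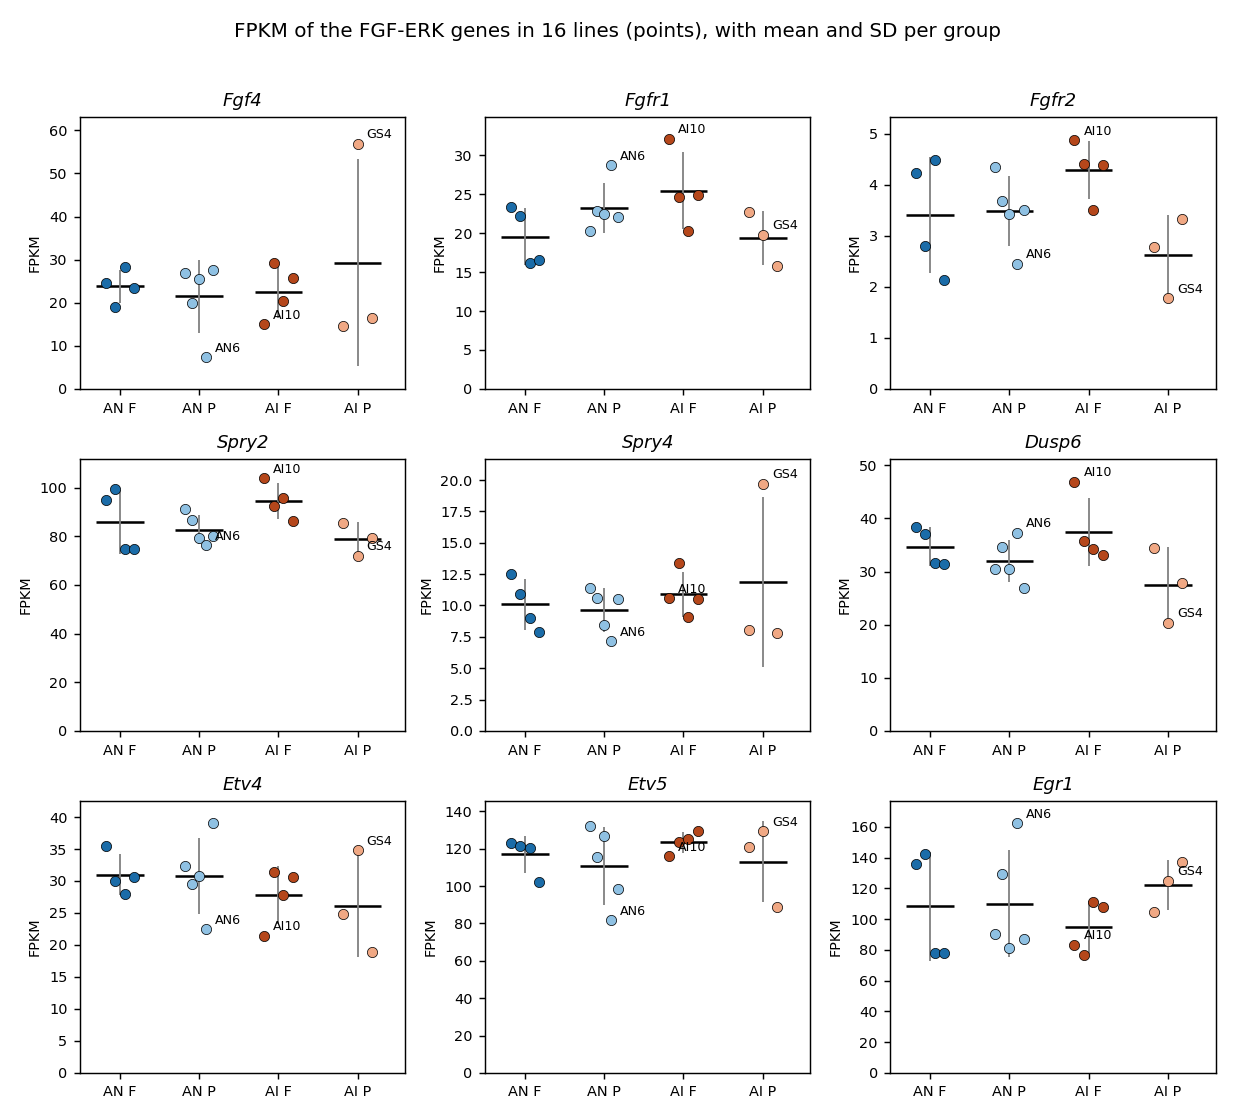
FPKM (y axis, linear, from 0) of each of the 9 genes in each group of lines (x axis). Each point is 1 line, the black bar the mean and the grey line the mean ± SD of the group. GS4 stands above the other lines for Fgf4 (56.9 FPKM) and Spry4 (19.7 FPKM), AN6 is the lowest for Fgf4 (7.39 FPKM), and the AI F points of Fgfr2 and Spry2 lie above all AI P points.

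The ligand Fgf4 (mm9 chr7:152047291-152051148, plus strand, 1 annotated transcript) was the most variable gene of the set, with a 7.70-fold range and a coefficient of variation of 44.9% over the 16 lines. That coefficient was above those of 97.3% of the 3616 genes of similar mean level. In the AN F lines Fgf4 stood at 24.6 FPKM in AN1, 23.4 in AN9, 18.9 in AN15 and 28.3 in AN20, and in the AN P lines at 27.0 FPKM in AN2, 19.9 in AN3, 25.6 in AN5, 7.39 in AN6 and 27.5 in AN7. The AN groups overlapped, and AN6 alone was far below the rest. In the AI F lines it stood at 29.3 FPKM in AI3, 20.4 in AI7, 15.0 in AI10 and 25.6 in GS32, and in the AI P lines at 14.6 FPKM in AI9, 56.9 in GS4 and 16.4 in GS9. GS4 was thus above every other line while the other AI P lines were at the low end. The difference of mean log2(FPKM + 1), used for all fold changes below, was 0.25 (SE 0.34) for AN F minus AN P and -0.13 (SE 0.47) for AI F minus AI P. Both signs turned when 1 line was left out. The AN value was -0.07 without AN6, and the AI value was 0.47 without GS4 and 0.04 without AI10.

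Fgfr1 is the main FGF receptor of embryonic stem cells, and Fgfr2 is the receptor associated with primitive endoderm. Fgfr2 was at 4.41 FPKM in AI3, 3.51 in AI7, 4.87 in AI10 and 4.38 in GS32, against 2.78 in AI9, 1.78 in GS4 and 3.33 in GS9. The lowest AI F line stood above the highest AI P line, with means of 4.29 ± 0.570 (SD, n = 4) and 2.63 ± 0.785 FPKM (SD, n = 3), a ratio of 1.63. The log2 difference was 0.56 (SE 0.18), with an unadjusted limma p of 0.0153 and an adjusted p of 0.521 (limma, Benjamini-Hochberg over 13185 genes). The exact two-sided permutation p was 0.0571, the smallest that 4 lines against 3 can give. Groups without overlap were found for 4.88% of all genes tested in this comparison. In the AN lines Fgfr2 ran from 2.13 to 4.49 FPKM in AN F and from 2.46 to 4.35 in AN P, and these groups overlapped (log2 difference -0.05, SE 0.19). In GENCODE vM1 (mm9), which need not be the annotation behind the FPKM values, the Fgfr2 entry (chr7:137305965-140315033, minus strand) spans 3009069 bases and overlaps 41 other genes. Whether the Fgfr2 entry behind the FPKM values had this span, and how reads in overlaps were assigned, is not given in the sources used here.

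Fgfr1 (mm9 chr8:26624126-26686186, plus strand) was at 24.6 FPKM in AI3, 20.2 in AI7, 32.1 in AI10 and 24.9 in GS32, against 22.7 in AI9, 19.8 in GS4 and 15.8 in GS9. AI10 was the highest and GS9 the lowest of all 16 lines, and AI7 was below AI9, so the groups overlapped. The AN groups lay in the other order and overlapped, with 16.2 to 23.3 FPKM in AN F and 20.2 to 28.7 in AN P. The log2 differences were 0.37 (SE 0.18) in AI and -0.25 (SE 0.14) in AN, with adjusted p-values of 0.521 and 0.636 (limma, Benjamini-Hochberg). GENCODE vM1 holds a second, shorter protein-coding entry of the same name inside the Fgfr1 gene.

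Spry2 (mm9 chr14:106291166-106296036, minus strand) was at 92.5 FPKM in AI3, 95.9 in AI7, 104 in AI10 and 86.2 in GS32, against 85.6 in AI9, 72.1 in GS4 and 79.2 in GS9. The AI groups did not overlap, but GS32 and AI9 nearly met. The means were 94.6 ± 7.35 (SD, n = 4) and 79.0 ± 6.76 FPKM (SD, n = 3), a ratio of 1.20. The log2 difference was 0.26 (SE 0.11), with an unadjusted limma p of 0.0432 and an adjusted p of 0.521 (limma, Benjamini-Hochberg). The exact two-sided permutation test again gave its smallest p, 0.0571. The unadjusted limma p was no longer under 0.05 without AI3, AI7, AI10, GS4 or GS9, each left out alone, and the log2 difference was then between 0.19 (without GS4) and 0.27 (without AI3). The AN F lines averaged 86.0 ± 13.1 FPKM of Spry2 (SD, n = 4) and the AN P lines 82.7 ± 6.00 FPKM (SD, n = 5).

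Dusp6 (mm9 chr10:98725865-98730122, plus strand), whose protein dephosphorylates ERK in the cytoplasm, had its highest value in AI10 and its lowest in GS4. It was at 35.8 FPKM in AI3, 34.3 in AI7, 46.9 in AI10 and 33.1 in GS32, against 34.4 in AI9, 20.4 in GS4 and 27.7 in GS9. AI9 lay within the AI F lines. The log2 difference was 0.45 (SE 0.20), with an adjusted p of 0.521 (limma, Benjamini-Hochberg) and an exact permutation p of 0.171, and it was 0.26 without GS4. In the AN lines Dusp6 ran from 31.4 to 38.5 FPKM in AN F and from 27.0 to 37.3 in AN P.

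Spry4, the other Sprouty gene, lies on mm9 chromosome 18. It was at 13.4 FPKM in AI3, 9.09 in AI7, 10.6 in AI10 and 10.5 in GS32, against 8.06 in AI9, 19.7 in GS4 and 7.83 in GS9. GS4 was again above all other lines and its AI P companions were at the low end, as for Fgf4. The log2 difference between AI F and AI P was -0.00 (SE 0.31). It was 0.40 without GS4, with an unadjusted limma p of 0.0485 and an adjusted p of 0.633 (limma, Benjamini-Hochberg), and 0.01 to 0.07 without AI7, AI10 or GS32. In the AN lines Spry4 ran from 7.92 to 12.5 FPKM in AN F and from 7.17 in AN6 to 11.4 in AN P.

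The ETS factors Etv4 (mm9 chr11:101631056-101646685, minus strand) and Etv5 (mm9 chr16:22381382-22439792, minus strand) are transcribed downstream of ERK and carry its signal to other genes. Etv4 averaged 31.0 ± 3.22 FPKM (SD, n = 4) over the AN F lines and 30.8 ± 5.95 FPKM (SD, n = 5) over the AN P lines. The AI F mean was 27.8 ± 4.55 FPKM (SD, n = 4) and the AI P mean 26.2 ± 8.07 FPKM (SD, n = 3). Its lowest line was GS9 at 18.8 FPKM and its highest AN7 at 39.0 FPKM. Etv5 averaged 117 ± 9.71 FPKM over AN F lines and 111 ± 20.8 FPKM over AN P lines, and the AI F and AI P means were 124 ± 5.61 and 113 ± 21.4 FPKM (SD over the same lines). The wide spread of the partially reprogrammed groups came from AN6 at 81.6 FPKM, AN7 at 98.4 FPKM and GS9 at 88.9 FPKM, while AN2 at 132 FPKM was the highest of all lines. For both genes the F and P lines overlapped in AN and in AI, with log2 differences between 0.02 and 0.14 for F minus P.

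Egr1, on mm9 chromosome 18, varied widely within groups. In AN F it was at 136 FPKM in AN1 and 142 in AN15, but at 77.8 in AN9 and 78.0 in AN20. In AN P it ran from 81.5 FPKM in AN5 to 162 in AN6, the highest of all lines. The AI F lines ran from 76.5 FPKM in AI3 to 111 in AI7, whereas the AI P lines ran from 104 in AI9 to 137 in GS9. It was the member with the most negative difference between AI F and AI P, with a log2 value of -0.37 (SE 0.17, adjusted p = 0.521, limma with Benjamini-Hochberg; exact permutation p = 0.171). In GENCODE vM1 a gene on the opposite strand, Gm17507, overlaps Egr1, and whether counting used strand is not given in the sources used here.

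Of the other members, 5 divided the AN F lines as Egr1 did and Fgf4, Fgfr2 and Etv4 did not. The split was picked from the Egr1 values. The share of all genes that divide these lines so was not determined, so the count is no result about the members. AN1 and AN15 had 95.1 and 99.4 FPKM of Spry2 against 74.9 in AN9 and 74.6 in AN20. Fgfr1 was at 23.3 and 22.2 FPKM in AN1 and AN15 against 16.6 and 16.2. For Dusp6 the values were 38.5 and 37.1 FPKM against 31.4 and 31.6, and for Spry4 12.5 and 10.9 FPKM against 7.92 and 9.01. Etv5 divided the lines by little, at 123 and 122 FPKM against 102 and 120. Fgfr2 was at 4.23 FPKM in AN1 and 2.80 in AN15, against 2.13 in AN9 and 4.49 in AN20, and Etv4 was at 29.9 FPKM in AN15 and 30.6 in AN9. AN1 and AN15 also had the higher summed level of 20 fibroblast markers, with 2332 and 1829 FPKM against 1271 in AN9 and 1293 in AN20, and the part of that in these values was not tested.

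**Figure D2:**
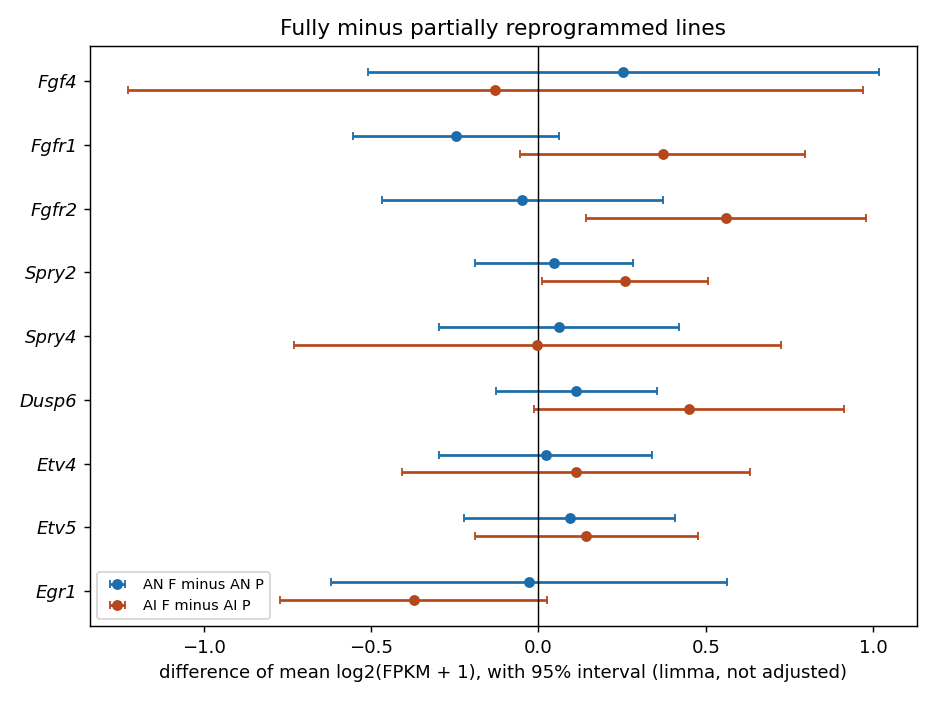
Difference of mean log2(FPKM + 1) between fully and partially reprogrammed lines (x axis) for each gene (y axis), in AN (blue, 4 against 5 lines) and AI (red, 4 against 3 lines), with the interval of the difference from limma before adjustment. The intervals include 0 for every gene in AN, and in AI for all but Fgfr2 (0.56) and Spry2 (0.26).

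Between AN F and AN P, 0 of 9 members passed an adjusted p under 0.05 (limma, Benjamini-Hochberg), as did 0% of all genes tested. At an unadjusted p under 0.05 the count was 0 of 9, against 6.01% of all genes, and 0 members had groups that did not overlap, against 1.3% of all genes. The median log2 difference of the members was 0.05, against -0.01 over all genes, and 6 of 9 were above 0, against 46.2% of all genes. The interval of the difference ran from -0.19 to 0.28 for Spry2 and from -0.13 to 0.35 for Dusp6. For Fgf4 it ran from -0.51 to 1.02, the widest of the 9 members.

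Between AI F and AI P, 0 of 9 members passed the adjusted threshold (limma, Benjamini-Hochberg), as did 0% of all genes. At an unadjusted p under 0.05 the count was 2 of 9 (Fgfr2 and Spry2, both higher in AI F), against 7.77% of all genes, and the same 2 of 9 had groups that did not overlap, against 4.88% of all genes. The median log2 difference of the members was 0.14, against -0.04 over all genes, and 6 of 9 were above 0, against 43.7% of all genes. The count of members at an unadjusted p under 0.05 depended on single lines. It was 5 of 9 without AI9 (Fgfr1, Fgfr2, Spry2, Dusp6 and Egr1), 1 of 9 (Fgfr2) without AI3, AI10 or GS9, 3 of 9 without AI7 or GS32, and 2 of 9 (Fgfr2 and Spry4) without GS4. Ordered by p, Fgfr2 stood at place 143 of 13185 genes. Within the newly derived AI lines (3 F against AI9) and within the previous ones (GS32 against 2 P), the log2 differences were 0.47 and 0.63 for Fgfr2 and 0.18 and 0.19 for Spry2. For Dusp6 they were 0.16 and 0.46, and for Fgfr1 0.14 and 0.47. For Fgf4 they were 0.48 and -0.25, and for Spry4 0.39 and -0.23. These within-derivation values rest on 1 line on 1 side and had no test.

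When the effect in AI was compared with the effect in AN by an interaction term over the 16 lines, 0 of 9 members passed the adjusted threshold (limma, Benjamini-Hochberg), as did 0% of all genes. At an unadjusted p under 0.05 the count was 2 of 9, Fgfr1 and Fgfr2, against 16.6% of all genes. The difference of effects was 0.62 (SE 0.23) for Fgfr1 and 0.61 (SE 0.27) for Fgfr2. The unadjusted limma p-values were 0.0166 and 0.0398 and the adjusted ones 0.290 and 0.293 (limma, Benjamini-Hochberg).

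The derivation methods were also compared at equal reprogramming state. Between AN F and AI F, 0 of 9 members passed the adjusted threshold (limma, Benjamini-Hochberg) against 0.00758% of all genes, 0 of 9 had an unadjusted p under 0.05 against 9.44%, and 0 of 9 had groups that did not overlap against 3.16%. The largest member difference there was that of Fgfr1, at 19.6 ± 3.71 FPKM in AN F and 25.5 ± 4.92 FPKM in AI F (log2 difference -0.36, SE 0.17; both SD, n = 4). Between AN P and AI P the counts were 0 of 9 at the adjusted threshold (limma, Benjamini-Hochberg) against 0.0152% of all genes, 0 of 9 at an unadjusted p under 0.05 against 5.69%, and 0 of 9 without overlap against 3.33%. These comparisons share lines with those of F with P.

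GS4 was the highest or lowest of the 16 lines for 5 of 9 members, with the highest Fgf4 and Spry4 and the lowest Fgfr2, Spry2 and Dusp6. AN6 was at an extreme for 4 members, with the lowest Fgf4, Spry4 and Etv5 and the highest Egr1. AI10 was the highest line for 4 members, Fgfr1, Fgfr2, Spry2 and Dusp6. The mean absolute deviation of the 9 members from the group mean, on the log2 scale, was 0.46 in AN6 and 0.40 in GS4, and 0.09 to 0.27 in the other 14 lines. How often these lines were at an extreme, or how far they deviated, over all genes tested was not determined. These values therefore show no trait particular to the members.

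**Figure D3:**
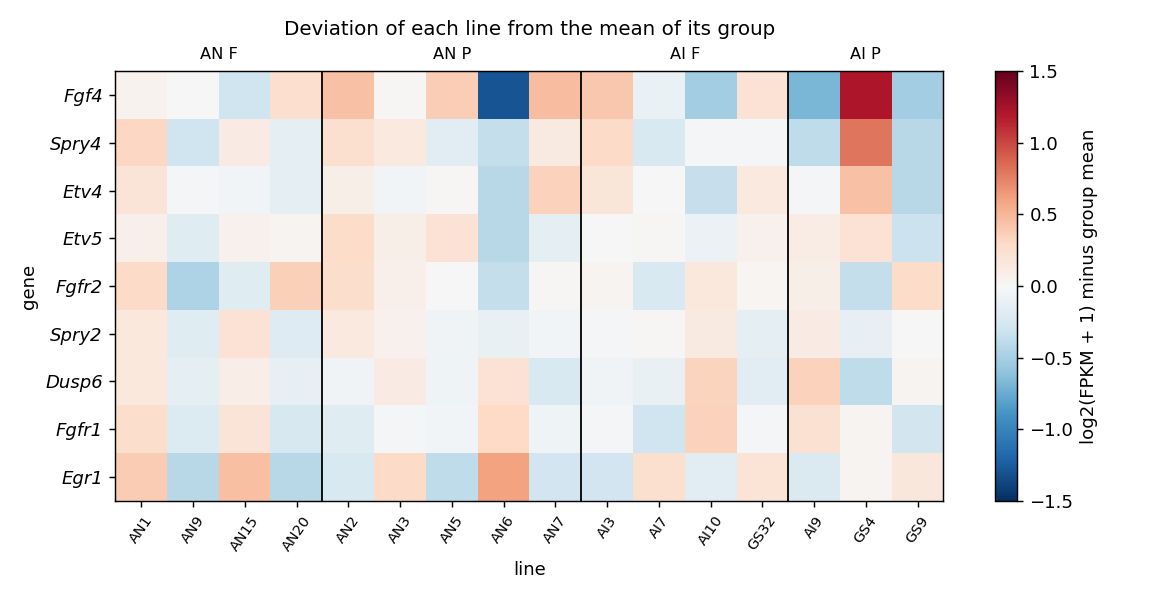
Deviation of log2(FPKM + 1) from the mean of the group (colour) for each gene (rows) in each line (columns), with the groups parted by black lines. AN6 is the lowest line for Fgf4, Spry4 and Etv5 within AN P, and GS4 shows high Fgf4, Spry4 and Etv4 beside low Dusp6 and Fgfr2.

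After the group means were subtracted, the ligand and some targets varied together over the 16 lines. Fgf4 followed Etv4 (Pearson r = 0.84, Spearman rho = 0.81) and Spry4 (r = 0.76, rho = 0.71), and Spry4 followed Etv4 (r = 0.74, rho = 0.67). Dusp6 ran against Fgf4 (r = -0.81, rho = -0.72) and Etv4 (r = -0.66, rho = -0.57) and with Fgfr1 (r = 0.64, rho = 0.57) and Spry2 (r = 0.61, rho = 0.65). Of the 36 pairs of members, 8 had an r of at least 0.5 and 2 an r of at most -0.5, which held for 12.4% and 11.6% of all pairs of genes tested. Without AN6 and GS4, a choice made after the values were seen, r over 14 lines was 0.70 for Fgf4 with Etv4, 0.57 for Fgf4 with Spry4 and -0.76 for Fgf4 with Dusp6, while for Fgf4 with Etv5 it was 0.35 in place of 0.65. These are descriptions over lines that share a genetic background and were sequenced together, and other genes correlate with Fgf4 as strongly. Its r with Etv4 stood at the percentile 97.6 of its r with all genes tested, and its r with Dusp6 at the percentile 3.38. Among the r values of Spry4, that with Etv4 stood at the percentile 98.0, and among those of Spry2, that with Dusp6 at 97.9. Some pairs stood less far out, such as Fgf4 with Etv5 at the percentile 89.3, Etv4 with Etv5 at 89.9 and Dusp6 with Etv4 at 10.0.

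**Figure D4:**
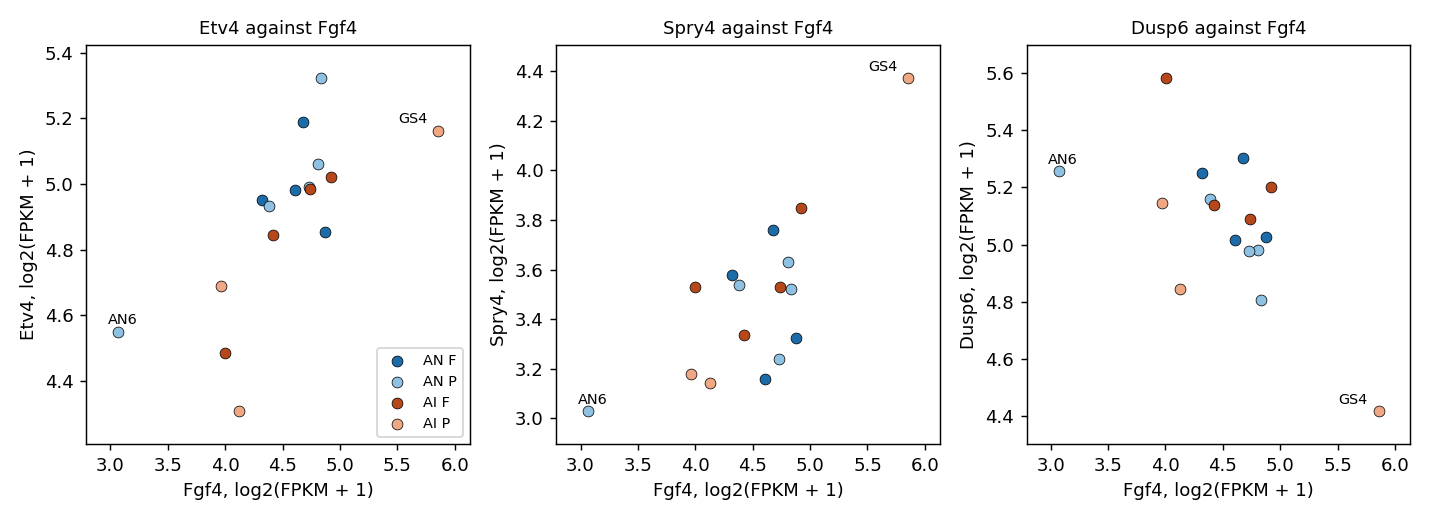
Etv4, Spry4 and Dusp6 (y axes) against Fgf4 (x axes), all as log2(FPKM + 1), 1 point per line coloured by group. Etv4 and Spry4 are higher and Dusp6 is lower in lines with more Fgf4, with AN6 at the low end and GS4 at the high end of Fgf4.

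Of all genes tested, those whose pattern over the 16 lines was most like that of a member, after the group means were subtracted, were not members themselves. For Fgf4 they were Arnt, a partner of hypoxia and dioxin response factors (r = 0.97), and Mybl2, a cell cycle transcription factor (r = 0.96). For the receptors they were Tmem176a and Tspo with Fgfr1 (r = 0.96 for both) and Slc38a1 and Mir680-2 with Fgfr2 (r = 0.88 and 0.81). For the inhibitors they were Adcy1 and Crabp1 with Spry2 (r = 0.88 and 0.82), Man2b1 and Pcdhga1 with Spry4 (r = 0.94 and 0.92), and Amotl2 and Pcdh18 with Dusp6 (r = 0.94 for both). For the transcription factors they were Def8 and Zkscan14 with Etv4 (r = 0.94 for both), Pogz with Etv5 (r = 0.93), and Ly6e and 0610031J06Rik with Egr1 (r = 0.91 for both). Mir680-2 is a microRNA entry, whose FPKM from such short features is uncertain, and Pcdhga1 belongs to a cluster of genes that share exons.

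Markers of pluripotent cells were high in all lines, with Dppa5a at a mean of 1212 FPKM, Pou5f1 at 829 and Tdgf1 at 641, and 14 of 15 listed markers were in the table, none at 0 in all lines. Lines that stood apart in the members also stood apart in markers. The 6 primed epiblast markers, among them Dnmt3b, Krt18 and T, summed to 956 FPKM in AN6 and to 269 to 408 FPKM in the other AN P lines. Krt18 reached 469 FPKM in 1 line. Dnmt3b was at 109 FPKM or more in every line, so only the AN6 sum can hold that value, and 1 gene gave a large part of it. AN6 also had 22.9 FPKM of trophoblast markers, against 5.58 to 13.0 FPKM in the other AN P lines. The summed level of the pluripotency markers was highest in GS4 at 5205 FPKM, followed by GS9 at 4708 FPKM, and was 2632 FPKM in AI10, the lowest. The r values with markers use the mean log2(FPKM + 1) of each list in place of the sum, with group means subtracted. By that mean, before subtraction, AN6 was the lowest line for the pluripotency markers (6.08, against 6.38 in AI10). Over the lines the primed markers had r = -0.87 with Fgf4, -0.81 with Etv4 and 0.74 with Dusp6. The pluripotency markers had r = 0.78 with Fgf4 and -0.78 with Dusp6. The trophoblast markers, though low, had r = -0.76 with Fgf4, -0.75 with Etv4 and 0.63 with Dusp6, so such values are not particular to the primed list. The part of the cell state in the members' values was not tested.

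The markers of fibroblasts, of which 20 of 20 were in the table and none was at 0 in all lines, were led by Tagln, Sparc and Acta2. They summed to 1585 to 3134 FPKM in AI F, and to 811 FPKM in GS4, 935 FPKM in GS9 and 2609 FPKM in AI9. In AN F they summed to 1271 to 2332 FPKM and in AN P to 1553 to 2996 FPKM. The r values below again use the mean log2(FPKM + 1) of each list, with group means subtracted, and not the sums. Fgfr1 had r = 0.62 with these markers and r = 0.81 with the 12 extraembryonic endoderm markers, of which 9 had a mean of at least 0.5 FPKM. The endoderm markers, led by Sparc, Lamb1 and Col4a1, summed to 485 to 952 FPKM in AI F and to 321 to 746 FPKM in AI P. Sparc, at a mean of 474 FPKM over the 16 lines, is on both lists, so the endoderm and fibroblast values are not separate measures. Fgfr2 had r = 0.30 with the fibroblast markers and r = 0.06 with the endoderm markers. Dusp6 had r = 0.45 with the fibroblast and r = 0.71 with the endoderm markers, and Spry2 r = 0.37 and r = 0.52. The part of these markers' cells in the AI differences of the members was not tested. The trophoblast markers, led by Eomes, Cdx2 and Hand1, were low and summed to 3.98 to 35.9 FPKM over all lines.

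The other genes of the pathway were taken from a list of 62 genes, all in the table, of which 59 were tested. Between AN F and AN P none passed the adjusted threshold in limma's test, and 1 of 59 had an unadjusted p under 0.05, against 6.01% of all genes, so the count is no result about the list. That gene was Nras, a RAS GTPase (41.3 ± 5.43 FPKM, SD, n = 4, over AN F lines and 35.1 ± 2.34 FPKM, SD, n = 5, over AN P lines, with a log2 difference of 0.22, SE 0.09). Between AI F and AI P none passed the adjusted threshold in limma's test, 6 were higher at an unadjusted p under 0.05 and 1 was lower, 7 of 59 against 7.77% of all genes. Of these 7, the 5 with the smallest p were the cyclin Ccnd1 (log2 difference 0.51), the receptor-like Fgfrl1 (0.54), the MEK kinase Map2k1 (-0.30), the ETS factor Elk4 (0.35) and Myc (0.41). For all 5 the AI F and AI P lines did not overlap. They were picked by their small p in this same comparison, so the 4.88% of all genes without overlap is no measure for them. Ccnd1 ran from 98.5 to 129 FPKM in AI F and from 74.3 to 96.2 in AI P, and Fgfrl1 from 4.90 to 6.44 and from 2.83 to 4.29. Map2k1 ran from 42.0 to 46.8 FPKM in AI F and from 52.5 to 60.0 in AI P.

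Over all genes tested, 43.7% had a positive log2 difference in AI and 46.2% in AN. By role, none of the 8 ligands tested had an unadjusted p under 0.05 in AN or AI, and the one with the highest mean was Fgf8, at 32.6 FPKM and with a wide range of 5.29 to 87.6 FPKM. Of the cascade genes, 9 of 19 had a positive log2 difference in AN and 9 of 19 in AI. Of the 12 inhibitors tested, led by the phosphatase Dusp9 at 35.8 FPKM, 12 had a positive difference in AI with a median of 0.35, and 4 of 12 in AN with a median of -0.05, though none of the 12 had an unadjusted p under 0.05 in either. Of the 18 transcription factors and response genes, led by Ccnd1 at 97.2 FPKM, 11 had a positive difference in AI with a median of 0.23, and 2 of 18 in AN with a median of -0.12. For AN P minus AI P, which uses the same AI P lines, 11 of 12 inhibitors were also positive (median 0.16). So were 15 of 18 response genes (median 0.15), against 47.1% of all genes. The positive differences in AI are thus not particular to F against P. Over all 59 the medians were 0.11 for F minus P in AI and -0.07 in AN, against -0.04 and -0.01 over all genes.

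Read numbers behind the values are unknown. The lines' relative depth, read from the steps of the lowest values of each gene, was 0.961 to 1.26 times that of AN1, and GS4 was the deepest. The summed FPKM of all genes was 661973 to 963434 per line, with GS9 the highest, and log2(FPKM + 1) correlated between lines at 0.929 to 0.978.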

How the data were processed

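The members and gene lists were chosen with earlier results of these data known. RNA from 16 lines was sequenced as single-end reads. Per the submitters' processing notes, TopHat2 (2.1.0), HTSeq and Cufflinks (2.2.1) were used with mm9. The deposited table holds the authors' FPKM values, 1 per gene name and line, with no counts. The annotation was a GTF file for mm9, whose release, like the library normalization and the use of strand, is not given in the sources used here. Values were transformed to log2(FPKM + 1), and the 13185 of 22552 genes with a mean of at least 0.5 FPKM were tested with a mean-variance trend in limma (3.58.1, under R 4.3.3), on the lines of the groups compared. P-values were adjusted over all genes tested by the Benjamini-Hochberg method at 0.05, and the interaction was fitted on all 16 lines. The test was tried on simulated data first. Single members were also compared by exact two-sided permutation tests (scipy 1.17.1, Python 3.11.15). The authors' Cuffdiff comparison needs reads and was not run. Beyond derivation and passage, nothing says more about the lines than that each is a separate clone, so p-values measure the spread between lines. In the AI groups that spread includes any difference between newly derived and previous lines, as GS32 is in AI F and GS4 and GS9 are in AI P.

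The text names all 9 members, for each its 2 most similar genes, of the pathway list up to 5 genes with the smallest unadjusted p under 0.05 per F against P comparison and the highest gene of each role, and at most 3 markers per list. Some items that this rule names are not reported here. Gene positions are from GENCODE vM1 (mm9), in which 95.7% of the names were found, and promoters from RefSeq (GRCm38.p6). Alternatives were another pseudocount, other filters, scalings and fits, passage or derivation as a term, and leaving out each line. Leaving out AN6 and GS4 together from the correlations was added after the data had been seen.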

Additional observations from a re-analysis of the deposited data

Results flagged for a closer look

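Etv5 in the AN F line AN9 was 102 FPKM, while AN1, AN15 and AN20 had 120 to 123 FPKM, so that this line stood apart from the rest of its group. It was 1 of 27 groups of lines examined in this way, of which chance gives 1.35.

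The difference of F minus P between AI and AN was 0.62 for Fgfr1 and 0.61 for Fgfr2 on the log2 scale, with unadjusted limma p-values of 0.0166 and 0.0398. Neither passed the adjustment over all genes (limma, Benjamini-Hochberg, adjusted p = 0.290 and 0.293), and 16.6% of all genes reached the same unadjusted threshold, so 2 of 9 is no result about the members.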

How the results depend on the processing

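The count of members passing the adjusted threshold was 0 in all 5 comparisons and stayed 0 in all 93 alternatives (limma, Benjamini-Hochberg). Fgfr2 had an unadjusted p under 0.05 between AI F and AI P in 16 of 16 alternatives, with log2 differences of 0.38 to 0.72, and could not be fitted with a minimum mean of 5 FPKM. Spry2 had it in 9 of 17. The number of members with it was 1 to 5 between AI F and AI P, with 4 when all 16 lines were fitted together, 0 to 1 between AN F and AN P (Fgfr1 without AN1) and between AN F and AI F, 0 to 2 between AN P and AI P and 1 to 3 for the interaction. Of 850 member differences recomputed, 56 changed sign.

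With quantile normalization, Egr1 in AN was 0.0098 and Etv5 between AN P and AI P 0.036. In AI, Spry4 was 0.0036 with a pseudocount of 0.1, 0.025 with median-ratio scaling, 0.12 with passage as a term and 0.10 with derivation as a term, and 0.39 within the new lines. Fgf4 in AI was 0.077 with passage, 0.14 with derivation and 0.48 within the new lines. With passage as a term, Fgf4 was 0.28, Spry4 0.20 and Etv5 0.081 between AN P and AI P, and the interaction of Spry4 was 0.039. The cause was not tested.

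When each line was left out in turn, the log2 difference between AN F and AN P ran from -0.18 (without AN15) to 0.12 (without AN6) for Egr1, from -0.084 (AN6) to 0.11 (AN7) for Etv4, from -0.011 (AN6) to 0.16 (AN2) for Etv5, from -0.070 (AN6) to 0.37 (AN7) for Fgf4, from -0.17 (AN20) to 0.11 (AN9) for Fgfr2, from -0.027 (AN15) to 0.11 (AN20) for Spry2 and from -0.040 (AN1) to 0.16 (AN9) for Spry4. Between AI F and AI P it ran from -0.092 (GS9) to 0.33 (GS4) for Etv4, from -0.020 (GS9) to 0.25 (GS4) for Etv5, from -0.47 (AI9) to 0.47 (GS4) for Fgf4 and from -0.22 (GS9) to 0.40 (GS4) for Spry4. Between AN F and AI F it ran from -0.16 (GS32) to 0.0056 (AI10) for Dusp6 and from -0.074 (AI10) to 0.23 (AI3) for Fgf4. Between AN P and AI P it ran from -0.20 (GS9) to 0.074 (GS4) for Etv5, from -0.63 (AI9) to 0.32 (GS4) for Fgf4 and from -0.38 (GS9) to 0.23 (GS4) for Spry4. The difference of effects ran from -0.11 (GS9) to 0.31 (GS4) for Etv4, from -0.11 (GS9) to 0.16 (GS4) for Etv5, from -0.72 (AI9) to 0.22 (GS4) for Fgf4 and from -0.28 (GS9) to 0.34 (GS4) for Spry4.

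No paired analysis was possible because the replicate numbers only name lines in accession order. Without AI9, 651 genes passed the adjusted threshold for the interaction (limma, Benjamini-Hochberg), Fgfr1 not among them (adjusted p = 0.0778), and 19 between AN P and AI P. The AI groups of 4 and 3 lines cannot give an exact p under 0.0571, and the read numbers behind the values are unknown.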
